A study of Mus musculus with 31 samples.

Results

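Macrophages in a tumour can carry an alternatively activated programme, and 10 genes that mark or oppose it are described here across mouse mammary tumours treated with radiotherapy. The genes were chosen by symbol, with earlier results of these data known. They were all found among the 38406 gene symbols of the count tables, Chil3 under its older symbol Chi3l3. Each library held the RNA of CD45.2+ leukocytes, sorted by flow cytometry from tumours grown in the mammary fat pad of wild-type female C57BL/6 mice. All tumours came from the AT3-OVA line, triple-negative mammary cancer cells of the mouse that express ovalbumin, so every group models the response to 1 tumour line. Irradiated tumours received local radiation as 3x4Gy, with 24 h between fractions, or as 1x20Gy. Mock groups received the matching anaesthesia without radiation and are named 3x0Gy and 1x0Gy. Tumours were taken 5 days after the end of treatment (3x4Gy n = 6, 3x0Gy n = 4, 1x20Gy n = 6, 1x0Gy n = 4) or 13 days after it (1x20Gy n = 7, 1x0Gy n = 4). The age of the mice is not given in the sources used here. The labels do not say that the libraries of a group came from separate mice, so p-values measure the spread between these libraries.

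Alternative activation is the state that IL-4 and IL-13 induce in macrophages. Both cytokines act through receptors that contain IL-4Rα and activate the transcription factor STAT6, which drives Retnla, Chil3, Arg1 and Mrc1 in mice. Folr2, Cd163, Stab1, Pf4 and Igf1 are markers or products of tissue-resident and perivascular macrophages, which help in scavenging and repair. Nos2 is the counterpart of classical activation, because inducible nitric oxide synthase competes with arginase 1 for arginine.

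The libraries held between 2641229 and 7541144 counts in genes. Levels are given as CPM, counts scaled to the TMM-adjusted library size, and as mean ± SD where a group is summarised. Day 5 and day 13 libraries carry different experiment codes and were scaled separately, so day and experiment cannot be told apart and no level is compared across days. The sort took all CD45.2+ cells, and the presence of macrophages among them was checked with 14 marker genes, none of which was at 0 in any group. Their summed level lay between 6751 and 26430 CPM at day 5 and between 8243 and 15217 CPM at day 13. Genes of stromal and tumour cells moved with treatment in the same libraries. The 9 fibroblast markers summed to between 228 and 650 CPM after 3x0Gy and between 18.1 and 53.9 CPM after 3x4Gy. They summed to between 110 and 353 CPM after 1x0Gy and between 14.6 and 72.3 CPM after 1x20Gy at day 5, and to between 120 and 203 CPM against between 16.0 and 51.8 CPM at day 13. A gene known only by a clone name, RP23-81C12.3, made up 19.2% to 31.5% of counts after 1x20Gy at day 13 and 2.15% to 15.01% in its mock group. In these bulk samples, fewer cells of a type and less RNA per cell cannot be told apart.

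None of the 10 genes passed the test as higher after irradiation, and 4 of them fell in at least 1 regimen and time. Igf1, a growth factor, fell in all 3 comparisons of an irradiated group with its mock group. Stab1, a scavenger receptor, fell after 1x20Gy on both days. After 3x4Gy its log2 fold change was -0.75, just short of the threshold (edgeR adjusted p = 0.0560). Retnla, which encodes a secreted protein of alternative activation, and the chemokine gene Pf4 fell after 3x4Gy at day 5. The responses to 3x4Gy and 1x20Gy at day 5 passed as different for 0 of the 10 genes and 0 of all genes (0%). Arg1, Chil3 and Mrc1, further targets of STAT6, passed the test in none of the 3 comparisons with mock.

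**Figure D1:**
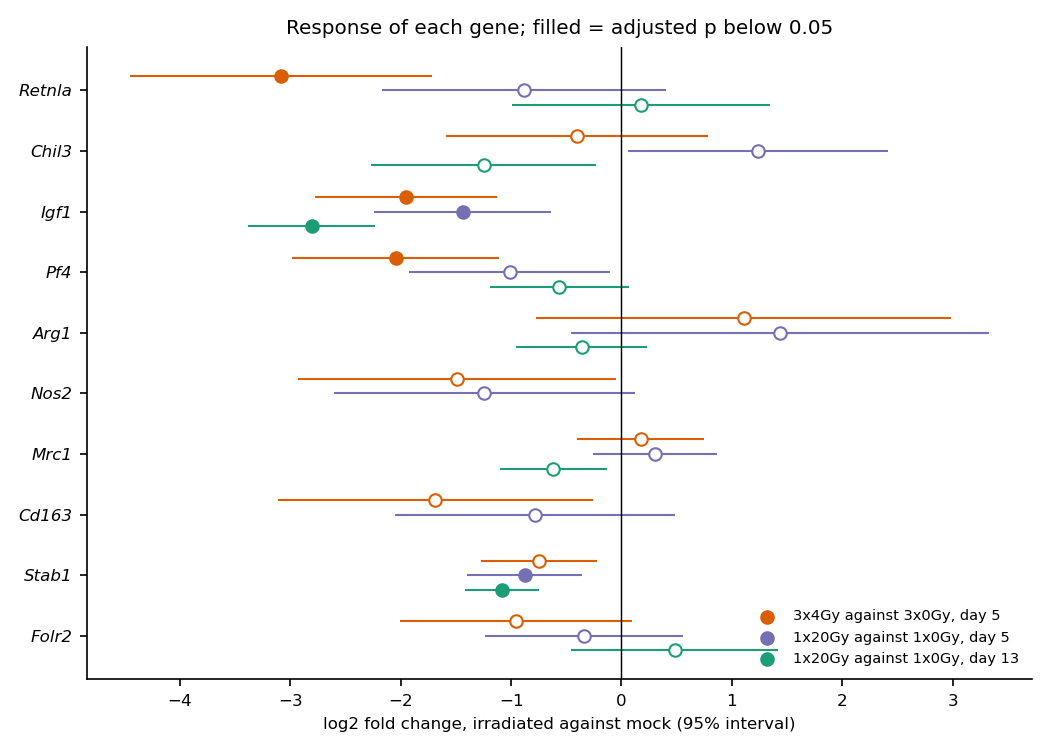
Log2 fold change of each gene in irradiated against mock libraries (x axis), with its 95% interval, for 3x4Gy at day 5 and 1x20Gy at day 5 and day 13; filled points have an adjusted p below 0.05 in edgeR's quasi-likelihood test. The 7 filled points all lie below 0, and they belong to Retnla, Igf1, Pf4 and Stab1.

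After 3x4Gy, 3 of 10 genes were lower and 0 higher (edgeR's quasi-likelihood test, Benjamini-Hochberg adjusted p below 0.05 over all genes). Among all 12021 genes tested at day 5, 7.09% passed as lower and 5.2% as higher. The median log2 fold change was -1.22 over the 10 genes and -0.0040 over all genes. After 1x20Gy at day 5, 2 of 10 were lower and 0 higher, where 4.88% of all genes passed as lower and 3.67% as higher, and the median was -0.83 beside 0.022 over all genes. At day 13, Nos2 and Cd163 had too few counts to be tested. Of the 8 genes that passed the filter there, 2 were lower and 0 higher, where 3.83% of all 11071 genes tested passed as lower and 4.22% as higher, and the median was -0.59 beside 0.0052. Before adjustment, Chil3 after 1x20Gy at day 5 was the single gene of the 10 with an unadjusted edgeR p below 0.05 as higher. In that comparison Igf1, Pf4 and Stab1 had such a p as lower, and 2743 of all 12021 genes had it in either direction. These are counts over a set of genes chosen with earlier results of these data known, and they carry no test of the set.

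Retnla encodes RELMα, a secreted protein that IL-4 strongly induces in mouse macrophages. The gene lies at chr16:48842551-48844461 on the plus strand (GRCm38, GENCODE M21). The bases before its start are shown because they hold TTC and GAA with 4 bases between them, a palindrome whose spacing STAT6 prefers, printed in capitals. Those before the start of Chil3 hold TTC and GAA with 3 bases between them, the spacing that other STAT proteins prefer, also in capitals. Both are RefSeq promoter sequences of GRCm38.p6 on the gene's strand, and the Retnla sequence stops at the transcript start of GENCODE.
Retnla, chr16:48842359-48842550, plus strand: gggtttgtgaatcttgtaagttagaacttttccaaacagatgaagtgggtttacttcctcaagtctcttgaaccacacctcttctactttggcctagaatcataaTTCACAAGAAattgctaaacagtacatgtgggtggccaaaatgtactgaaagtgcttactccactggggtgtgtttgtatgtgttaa
Chil3, chr3:106167565-106167814, minus strand: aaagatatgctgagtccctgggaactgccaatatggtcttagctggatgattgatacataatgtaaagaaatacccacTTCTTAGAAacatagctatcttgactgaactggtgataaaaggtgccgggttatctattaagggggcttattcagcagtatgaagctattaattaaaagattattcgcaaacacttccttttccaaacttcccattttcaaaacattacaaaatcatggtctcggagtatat
Matched by symbol, 8 of the 10 genes had 9 promoters in the RefSeq table, and Arg1 and Nos2 had none. The 250 bases before each RefSeq start were searched on both strands, which is the same search for these palindromes. The 4-base spacing was found in Retnla alone, starting 145 bases before the RefSeq start, and in 5.85% of 32851 promoters of that length. The 3-base spacing was found in Chil3 alone, starting 172 bases before the start, and in 7.02% of promoters. These letters are a description of the window, and binding was not measured.

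Retnla had the largest log2 fold change of the 10 genes after 3x4Gy. The 4 libraries of 3x0Gy held 37.0, 221, 232 and 200 CPM. After 3x4Gy the lowest library held 8.52 CPM, the median was 11.8 CPM and the highest held 54.3 CPM. The groups overlapped only through the first 3x0Gy library, which lay below the highest 3x4Gy library, and 5 of the 6 irradiated libraries were below every mock library. Retnla fell by 3.08 on the log2 scale (SE 0.66, 95% interval -4.46 to -1.71, edgeR adjusted p = 0.00353). With the mean of fibroblast and epithelial markers as a covariate the fold change was -2.84 and the call was lost (adjusted p = 0.212).

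Retnla did not pass the test after 1x20Gy. At day 5 the mock libraries of 1x0Gy held 32.4, 185, 671 and 361 CPM, and the 1x20Gy libraries ran from 54.5 through a median of 167 to 290 CPM. The groups overlapped widely, and the log2 fold change was -0.88 (SE 0.62, edgeR adjusted p = 0.431). At day 13 the mock libraries held 23.3, 52.6, 96.8 and 24.5 CPM against 13.3, 35.6 and 135 CPM (lowest, median and highest) after 1x20Gy. The log2 fold change there was 0.17 (SE 0.55, adjusted p = 0.888).

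Set side by side, all 6 libraries of 3x4Gy held less Retnla than any of the 6 libraries of 1x20Gy at day 5. The log2 difference was -3.05 (SE 0.63, 95% interval -4.35 to -1.75), with an edgeR adjusted p of 0.149 over all genes. In this comparison 3 genes passed, 0.025% of those tested, and 0 of the 10 were among them. Retnla, Folr2 and Mrc1 had an unadjusted edgeR p below 0.05, as did 826 of all 12021 genes tested. Retnla passed when the filter on low counts was dropped (adjusted p = 0.00443), in DESeq2 (0.00347) and with a replicate block (0.0336). The other 9 of 12 settings, limma voom and each covariate among them, left it without a call (adjusted p up to 0.402). Of 12 fits with 1 library left out, 1 called it, the fit without the sixth 3x4Gy library (0.0384). Adjusted p reached 0.502 in the others. The difference between the 2 responses, each taken against its own mock, was -2.20 (SE 0.92, adjusted p = 0.804). The mock groups averaged 172 ± 91.4 CPM (3x0Gy) and 312 ± 274 CPM (1x0Gy). No gene of all tested passed for this difference (0%), and 714 had an unadjusted p below 0.05 in edgeR, with 1 gene called by DESeq2 and 0 by limma voom.

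Eosinophils and adipocytes can express Retnla. The 7 eosinophil markers summed to between 1.35 and 12.1 CPM in any library, and Epx was at 0 in 5 of the 6 groups. The 7 adipocyte markers summed to between 0.622 and 5.23 CPM in any library. Lep was at 0 in every group, Cidec in every day 5 group, and 1 of the 7 had enough counts to be tested at day 5 and did not pass.

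**Figure D2:**
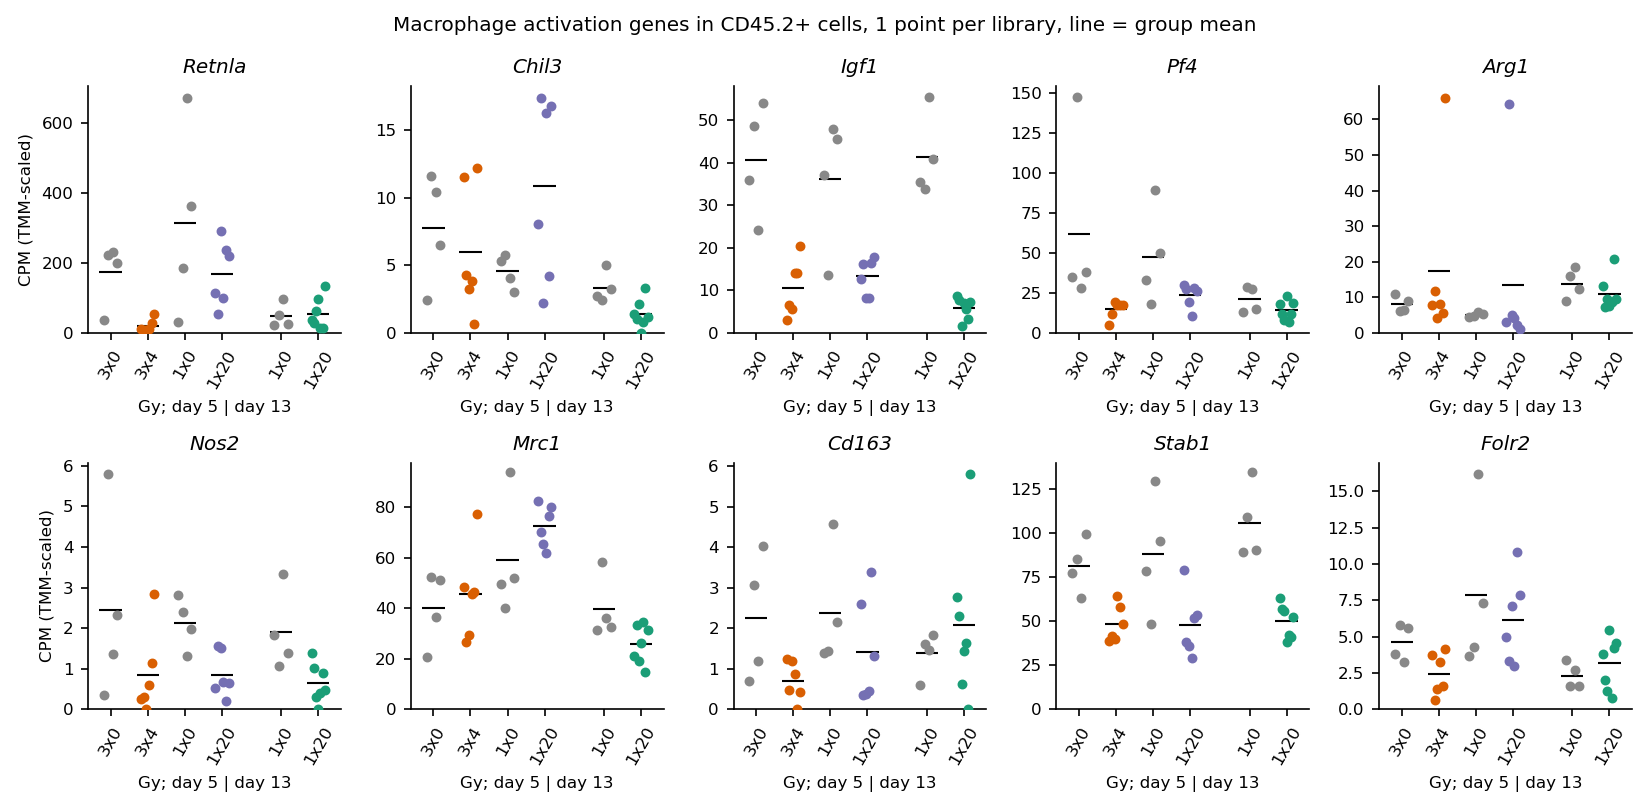
CPM after TMM scaling (y axis, linear, each panel with its own range) of the 10 genes in each library, by dose and day; points are libraries and lines are group means. Retnla in the 6 libraries of 3x4Gy lies between 8.52 and 54.3 CPM, and Igf1 after 1x20Gy at day 13 lies between 1.55 and 8.65 CPM, below all 4 mock libraries.

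Chil3 encodes Ym1, a secreted chitinase-like protein and a classic partner of Retnla in alternative activation. It lies at chr3:106147554-106167564 on the minus strand. Its near-identical relative Chil4 had 0 counts in all libraries and Chil3 had 828. Reads that both genes share may have been left out or counted for Chil3, which makes its level uncertain. The 3x0Gy libraries held 2.44, 11.6, 10.4 and 6.51 CPM and the 3x4Gy libraries ran from 0.688 through 4.05 to 12.2 CPM. The 1x0Gy libraries at day 5 held 5.36, 5.75, 4.09 and 3.04 CPM and the 1x20Gy libraries ran from 2.25 through 12.2 to 17.4 CPM. Both pairs of groups overlapped. The log2 fold changes were -0.40 (SE 0.57) after 3x4Gy, 1.24 (SE 0.57) after 1x20Gy at day 5 and -1.25 (SE 0.48) at day 13, with edgeR adjusted p of 0.675, 0.194 and 0.125. The change of the 1x20Gy response from day 5 to day 13 was -2.47 (SE 0.85, adjusted p = 0.180), the largest in size of the 10 genes. In that comparison 51 genes passed (0.423%), and 0 of the 10 did. Chil3, Igf1 and Mrc1 had an unadjusted edgeR p below 0.05, as did 1499 of all 12061 genes tested. Of 9 neutrophil markers tested at day 5, 0 rose and 1 fell after 3x4Gy, and 2 rose and 1 fell after 1x20Gy. At day 13, 3 of 7 rose and 1 fell. Of 12 monocyte markers, 3 rose in each day 5 comparison, 1 rose at day 13 and 0 fell. Median log2 fold changes at day 5 were 0.46 and 2.36 for neutrophil and 0.64 and 0.93 for monocyte markers. The part of neutrophils and monocytes in the levels of Chil3 and Retnla was not tested.

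Igf1 encodes insulin-like growth factor 1, a growth and repair factor that macrophages and fibroblasts release. It lies at chr10:87858265-87937042 on the plus strand. In 3x0Gy libraries Igf1 was at 35.9, 48.7, 24.3 and 54.1 CPM, and the 3x4Gy libraries ran from 3.01 through 10.3 to 20.5 CPM, without overlap. Igf1 fell by 1.95 on the log2 scale after 3x4Gy (SE 0.40, edgeR adjusted p = 0.00246). All 6 irradiated libraries lay below the lowest mock library.

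Igf1 fell after 1x20Gy at day 5 too, where the groups overlapped. The 1x0Gy libraries held 37.3, 13.6, 48.0 and 45.7 CPM, and the 1x20Gy libraries ran from 8.25 through 14.5 to 17.9 CPM. The second mock library lay among the irradiated ones. Igf1 fell by 1.44 (SE 0.39, edgeR adjusted p = 0.0209). This call was lost without the fourth 1x20Gy library (adjusted p = 0.0532), the third mock library (0.0890) or the fourth (0.0841), and when adjusted for the share of reads outside genes (0.109).

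At day 13 the groups did not overlap. The mock libraries held 35.5, 33.98, 55.4 and 40.9 CPM of Igf1, and after 1x20Gy the lowest, median and highest were 1.55, 6.94 and 8.65 CPM. All 7 irradiated libraries were below every mock library. Igf1 fell by 2.81 (SE 0.27, 95% interval -3.38 to -2.23, edgeR adjusted p = 6.4e-05). The response at day 13 differed from that at day 5 by -1.35 (SE 0.53, adjusted p = 0.257), and the irradiated groups at day 5 differed by -0.34 (95% interval -1.12 to 0.45, adjusted p = 0.932). The 2 responses at day 5, each against its own mock, differed by -0.51 (SE 0.56, adjusted p = 0.875).

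Fibroblast markers moved with Igf1. Of the 7 fibroblast markers tested, 7 fell after 3x4Gy, 3 after 1x20Gy at day 5 and 5 at day 13. With the mean of fibroblast and epithelial markers as a covariate, Igf1 kept its calls after 3x4Gy and at day 13, but not after 1x20Gy at day 5, where its log2 fold change was -2.24 and its adjusted p 0.0676. With the mean of the macrophage markers as a covariate it fell by 1.67 after 3x4Gy (adjusted p = 0.000796). The values were -0.81 (0.142) after 1x20Gy at day 5 and -2.30 (0.434) at day 13, where the marker means of the 2 groups did not overlap.

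Pf4 encodes platelet factor 4 (CXCL4), a chemokine of platelets that tissue macrophages also express. It lies at chr5:90772435-90773383 on the plus strand. In 3x0Gy libraries Pf4 was at 35.2, 148, 28.1 and 38.0 CPM, and the 3x4Gy libraries ran from 5.01 through 17.7 to 19.2 CPM. The groups did not overlap, and the second mock library stood far above the other 3. Pf4 fell by 2.05 (SE 0.45, edgeR adjusted p = 0.0045), and without that mock library by 1.19 (adjusted p = 0.0533). With the fibroblast and epithelial covariate used for Retnla, the fold change was -2.34 (adjusted p = 0.0893). That mock library also had the lowest share of reads outside genes, 5.65%, and adjusting for this share gave a log2 fold change of -1.05 (adjusted p = 0.276).

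Pf4 did not pass the test after 1x20Gy. At day 5 the mock libraries held 33.3, 18.4, 89.7 and 49.8 CPM against 10.5, 26.8 and 29.7 CPM (lowest, median and highest), and the log2 fold change of Pf4 was -1.01 with SE 0.44 (edgeR adjusted p = 0.165). At day 13 it was -0.56 (SE 0.30, adjusted p = 0.274). The response to 3x4Gy differed from that to 1x20Gy at day 5 by -1.03 (SE 0.64, adjusted p = 0.822). Platelet markers were low in all groups. The 12 of them summed to between 6.62 and 25.7 CPM in any library, Gp9 was at 0 in every group, and none of the 3 tested at day 5 passed in either comparison with mock. At day 13, 1 of 2 rose, the integrin gene Itgb3, by 1.40 (SE 0.25, adjusted p = 0.00325).

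Arg1 and Nos2 encode the enzymes that split arginine into ornithine and urea or into nitric oxide and citrulline. Arg1 lies at chr10:24915221-24927484 on the minus strand. The 3x0Gy libraries held 10.8, 6.13, 6.34 and 8.99 CPM and the 1x0Gy libraries at day 5 held 4.47, 4.79, 5.89 and 5.19 CPM. The 3x4Gy libraries ran from 4.14 through a median of 8.02 to 66.1 CPM and the 1x20Gy libraries from 1.09 through 3.63 to 64.4 CPM. A single library in each irradiated group held these highest values, and the next held 11.8 and 5.07 CPM. The log2 fold changes were 1.11 (SE 0.91) and 1.43 (SE 0.91), with edgeR adjusted p of 0.437 and 0.373. Their direction rested on those libraries, since leaving them out gave -0.08 after 3x4Gy and -0.67 after 1x20Gy. At day 13 Arg1 held 8.89, 15.9, 18.4 and 12.2 CPM in mock libraries and from 7.16 through 9.44 to 20.8 CPM after 1x20Gy, with overlap. Its log2 fold change was -0.36 there (SE 0.28, adjusted p = 0.482).

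Nos2 was near the floor of detection, with 193 counts over all libraries. It lies at chr11:78920787-78960254 on the plus strand. The 4 libraries of 3x0Gy held 0.349, 5.79, 1.37 and 2.33 CPM, and those of 3x4Gy held 0 counts at the lowest, a median of 0.453 CPM and 2.84 CPM at the highest. After 1x0Gy at day 5 they held 2.81, 2.40, 1.31 and 1.97 CPM, and after 1x20Gy they ran from 0.212 through 0.671 to 1.57 CPM. The ranges overlapped in both comparisons. The log2 fold changes were -1.49 (SE 0.70, edgeR adjusted p = 0.163) and -1.24 (SE 0.66, adjusted p = 0.268). Without the sixth 3x4Gy library, Nos2 was lower after 3x4Gy by 2.40 on the log2 scale, with an adjusted p of 0.0341. At day 13 it was not tested, with 1.08 to 3.34 CPM in mock libraries and 0 to 1.38 CPM after 1x20Gy.

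Of the 4 receptors of the set, Stab1 passed the test and Mrc1, Cd163 and Folr2 did not. Mrc1 encodes CD206, the macrophage mannose receptor, and lies at chr2:14229392-14332057 on the plus strand. Mrc1 was at 20.9, 52.5, 36.5 and 51.0 CPM in the 3x0Gy libraries and the 3x4Gy libraries ran from 26.8 through 46.2 to 77.2 CPM. The 1x0Gy libraries at day 5 held 49.8, 40.1, 93.7 and 52.1 CPM and the 1x20Gy libraries ran from 61.6 through 73.3 to 82.2 CPM. Both pairs overlapped, with log2 fold changes of 0.17 (95% interval -0.40 to 0.75) and 0.30 (95% interval -0.26 to 0.86) and edgeR adjusted p of 0.710 and 0.562. Mrc1 was lower after 3x4Gy than after 1x20Gy by 0.67 on the log2 scale without passing the test (SE 0.24, adjusted p = 0.577).

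At day 13 the mock libraries held 31.6, 58.2, 36.2 and 32.6 CPM of Mrc1 and the 1x20Gy libraries ran from 14.8 through 26.3 to 34.7 CPM. The log2 fold change was -0.62 (SE 0.23, edgeR adjusted p = 0.112). It passed with scaling to library size (adjusted p = 0.0160), under which the median of all genes was shifted to -0.225, and when adjusted for the share of reads outside genes (0.0242).

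Stab1 encodes stabilin-1, a scavenger receptor of macrophages and of some endothelial cells. It lies at chr14:31139013-31168641 on the minus strand and overlaps Nt5dc2 on the other strand, which had 784 counts beside 9309 for Stab1. The strand setting of the counting is not given in the sources used here, so reads of such partners cannot be told apart. Igf1 and Folr2 also overlap genes on the other strand, which were not analysed here. After 3x4Gy the libraries ran from 38.6 through 44.9 to 64.4 CPM, and the 3x0Gy libraries held 77.4, 85.5, 63.2 and 99.7 CPM. The third mock library lay just below the highest irradiated one. The log2 fold change was -0.75 (SE 0.25), with an edgeR adjusted p of 0.0560. Stab1 passed under 7 of 12 other settings, DESeq2 among them (adjusted p = 0.0318).

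After 1x20Gy at day 5, Stab1 fell by 0.88 (SE 0.25, edgeR adjusted p = 0.0311). The mock libraries held 78.4, 48.3, 130 and 95.4 CPM and the irradiated ones ran from 29.1 through 45.3 to 79.1 CPM, with overlap. The call was lost without the second or the fourth 1x20Gy library (adjusted p = 0.0662 and 0.0746) and without the third or the fourth mock library (0.185 and 0.0968). It was also lost with the fibroblast and epithelial covariate (0.214) and when adjusted for the share of reads outside genes (0.0580). The response of Stab1 to 3x4Gy differed from that to 1x20Gy at day 5 by 0.12 (SE 0.36, edgeR adjusted p = 0.961). At day 13 the groups did not overlap, with 89.5, 109, 135 and 90.5 CPM in mock libraries and 38.2, 52.3 and 63.3 CPM (lowest, median and highest) after 1x20Gy. Stab1 fell there by 1.08 (SE 0.16, adjusted p = 0.00123).

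Some macrophage markers also fell. At day 5, 1 of 14 passed in each comparison with mock, Trem2, a lipid receptor of macrophages. At day 13, 5 of the 14 passed as lower, Trem2, Apoe, C1qc, C1qb and Csf1r. With the macrophage marker mean as a covariate, the log2 fold change of Stab1 was -0.49 (adjusted p = 0.0908) after 1x20Gy at day 5 and -0.57 (adjusted p = 1) at day 13. The 9 endothelial markers summed to between 27.9 and 44.3 CPM after 3x0Gy and between 51.6 and 85.0 CPM after 3x4Gy. At day 5 they summed to between 28.1 and 40.7 CPM after 1x0Gy and between 37.9 and 72.6 CPM after 1x20Gy. Much of these sums was Kdr, the only 1 of 5 tested that passed, as higher, in each day 5 comparison. Kdr averaged 27.8 CPM after 3x0Gy and 50.8 CPM after 3x4Gy, and 28.0 CPM after 1x0Gy and 44.7 CPM after 1x20Gy. At day 13 the 9 markers summed to between 28.2 and 34.2 CPM after 1x0Gy and between 32.4 and 52.2 CPM after 1x20Gy. Vwf, a clotting protein gene of endothelium, rose there by 1.51 (SE 0.40, edgeR adjusted p = 0.0289). The part of these cells in the level of Stab1 was not tested.

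Cd163 and Folr2 mark resident macrophages, as a haemoglobin scavenger receptor and a folate receptor. Cd163, at chr6:124304656-124330527 on the plus strand, had 237 counts over all libraries. Levels after 3x0Gy were 0.697, 3.07, 1.20 and 4.03 CPM and the 3x4Gy libraries ran from 0 counts through 0.680 to 1.25 CPM, with overlap. The log2 fold change was -1.69 (SE 0.69, edgeR adjusted p = 0.110). After 1x20Gy at day 5 it was -0.78 (SE 0.61, adjusted p = 0.494), and day 13 was not tested.

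Folr2 lies at chr7:101839988-101857194 on the minus strand. The 3x0Gy libraries held 3.83, 5.79, 3.25 and 5.58 CPM and the 3x4Gy libraries ran from 0.631 through 2.43 to 4.15 CPM. The 1x20Gy libraries at day 5 ran from 2.98 through 6.04 to 10.8 CPM, inside the range of their mock, 3.70, 4.31, 16.2 and 7.34 CPM, except for the 2 lowest. The log2 fold changes were -0.96 (SE 0.51), -0.34 (SE 0.43) and, at day 13, 0.48 (SE 0.44), with edgeR adjusted p of 0.216, 0.701 and 0.560. Folr2 was lower after 3x4Gy than after 1x20Gy by 1.38 (SE 0.45), with an adjusted p of 0.522.

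Divided by exon length in GENCODE M21, Retnla and Pf4 had the highest mean levels of the 10 genes in every group. Retnla averaged 288 CPM per kb after 3x0Gy and 34.1 CPM per kb after 3x4Gy, and Pf4 86.3 and 20.6 CPM per kb in the same groups. After 1x0Gy at day 5, Retnla averaged 521 CPM per kb and Pf4 66.3 CPM per kb. Nos2 and Cd163 stayed at or below 0.56 CPM per kb in each group. At day 5, ordering the groups by mean CPM put 3x4Gy lowest for Retnla, Igf1, Pf4, Cd163 and Folr2, and Nos2 averaged 0.857 CPM in both irradiated groups. Neighbours in these orders differed beyond 1 SD on each side for Retnla between 3x4Gy (20.5 ± 18.1 CPM) and 1x20Gy (169 ± 92.2 CPM). They did so for Igf1 between 1x20Gy (13.3 ± 4.24 CPM) and 1x0Gy (36.1 ± 15.7 CPM), and for Stab1 between 3x4Gy (48.5 ± 10.6 CPM) and 3x0Gy (81.4 ± 15.3 CPM). The same held for Nos2 between 1x20Gy and 1x0Gy, and for Arg1 between the mock groups 1x0Gy and 3x0Gy. Between the 2 mock groups 0 of the 10 genes and 0 of all genes (0%) passed in edgeR, where 667 genes, and 0 of the 10, had an unadjusted p below 0.05. DESeq2 called 2 genes there and limma voom 0.

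Set against the macrophage markers of the same library, the genes differed from each other. For each library the mean log2 CPM of the 14 markers was subtracted from the log2 CPM of the gene. The marker mean itself was lower in irradiated than in mock groups by 0.31 for 3x4Gy, 0.47 for 1x20Gy at day 5 and 0.61 for 1x20Gy at day 13, on the log2 scale. Relative to it, Retnla differed by -2.80 after 3x4Gy but by 0.04 after 1x20Gy at day 5. Igf1 differed by -1.79, -0.86 and -2.21 in the 3 comparisons, and Stab1 by -0.44, -0.39 and -0.47. Mrc1 differed by 0.49 after 3x4Gy, 0.84 after 1x20Gy at day 5 and -0.01 at day 13. These are differences of group means without a test.

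**Figure D3:**
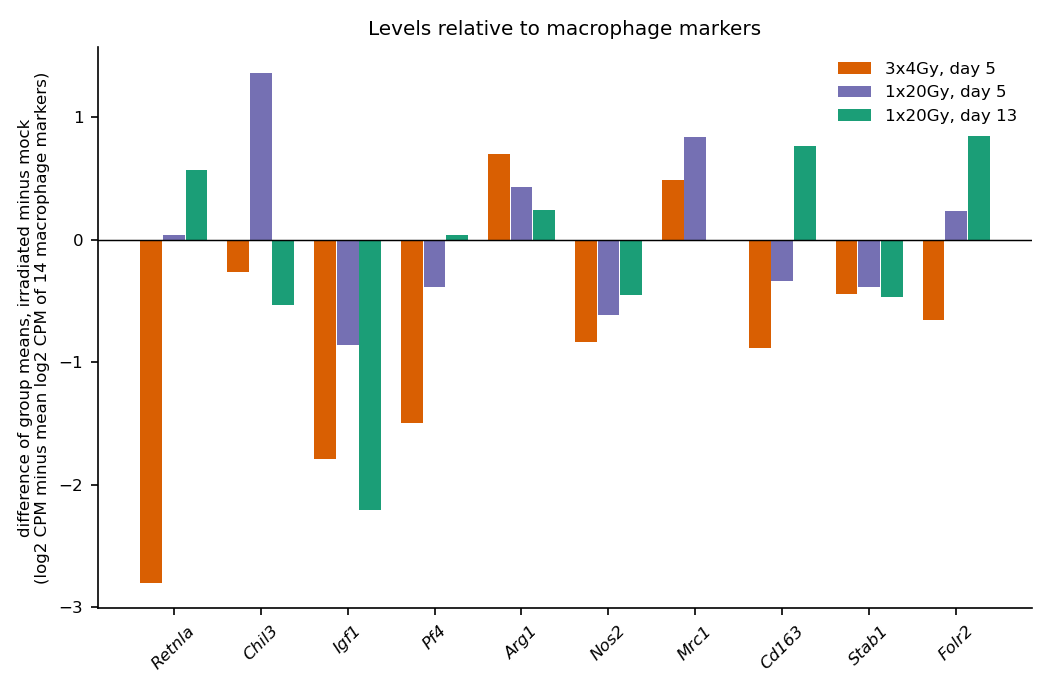
Difference between irradiated and mock group means of each gene's log2 CPM minus the mean log2 CPM of 14 macrophage markers (y axis), for the 10 genes (x axis) in 3 comparisons. Igf1, Stab1 and Nos2 lie below 0 in all 3 comparisons and Arg1 above 0, while Retnla lies at -2.80 after 3x4Gy and at 0.04 after 1x20Gy at day 5. Nos2 was near the floor of detection and had too few counts to be tested at day 13. In each irradiated group at day 5, a single library held far more Arg1 than the next (66.1 against 11.8 CPM and 64.4 against 5.07 CPM).

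Within groups, some of the genes varied together from library to library. Over the 31 libraries, with group means removed, Pearson's r was 0.65 between Igf1 and Pf4, 0.58 between Pf4 and Stab1 and 0.57 between Igf1 and Stab1. Retnla varied most with Folr2 (r = 0.56) and Mrc1 (0.54), and Arg1 with Nos2 (0.45). Between Retnla and Chil3, r was -0.10. The lowest of the 45 values was -0.33 between Arg1 and Cd163. The libraries share depth and cell makeup in these values, which are descriptions without a test. With the mean of the macrophage markers, r was 0.79 for Stab1, 0.66 for Pf4, 0.63 for Igf1, 0.44 for Mrc1, 0.30 for Retnla, -0.17 for Chil3 and -0.22 for Arg1.

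**Figure D4:**
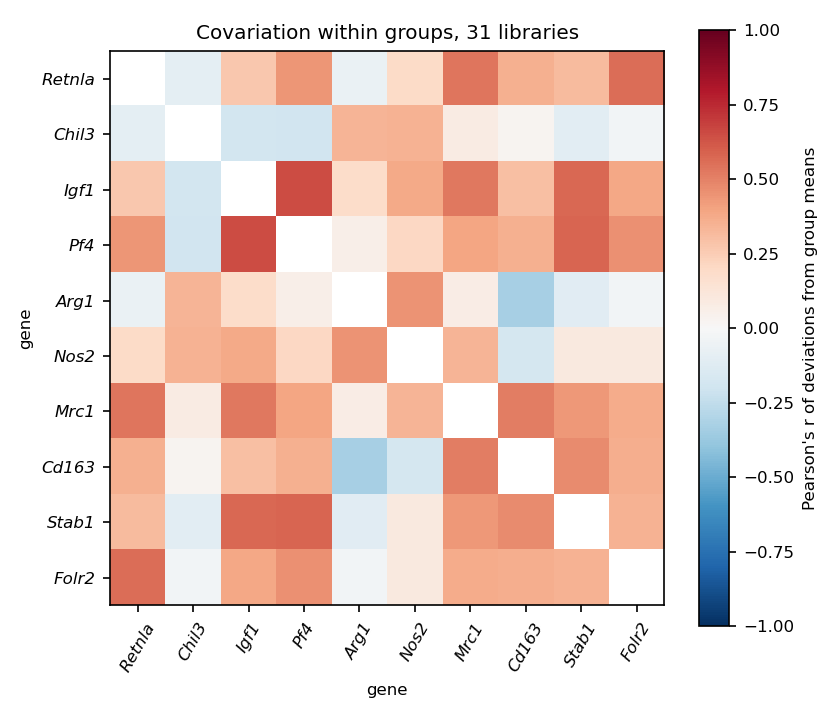
Pearson's r between pairs of the 10 genes (both axes), from deviations of log2 CPM from group means over 31 libraries; red is positive and blue negative. Igf1, Pf4 and Stab1 form the strongest triple, with r between 0.57 and 0.65, and Arg1 with Cd163 is lowest at -0.33.

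Among the 9603 genes whose mean reached 5 CPM, those most like Retnla in these deviations were Lyz1 (r = 0.87), Ear2 (0.80) and Fn1 (0.76). Ear2 is among the monocyte markers used here. Those most like Igf1 were Vcam1 (0.84), Lgals3 (0.80) and Ctsb (0.79), and those most like Pf4 were Vkorc1 (0.86), Dcstamp (0.85) and Trem2 (0.84). Stab1 was most like Rin2 (0.85), Tmem37 (0.83) and Cd68 (0.81), and Mrc1 most like Ccr1 (0.84), Dab2 (0.83) and Msr1 (0.77). For Arg1 they were Sgms2 (0.78), Upp1 (0.74) and Smpdl3b (0.70). The closest genes to Nos2, Cd163, Folr2 and Chil3 were Lilrb4 (0.76), Ecm1 (0.69), Capns1 (0.69) and Cdk16 (0.64).

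Genes of IL-4 and STAT6 signalling, which drive the programme, were called in both directions. Of 14 tested at day 5, 3 rose and 1 fell after 3x4Gy and 3 rose and 1 fell after 1x20Gy, and at day 13 2 of 15 rose and 1 fell. The median log2 fold changes were 0.34, 0.29 and 0.31, beside the medians near 0 of all genes. Of all genes, 5.2%, 3.67% and 4.22% passed as higher and 7.09%, 4.88% and 3.83% as lower. These shares also stand beside the counts of the lists that follow. Il13ra1, a subunit of the receptor for IL-13, fell in all 3 comparisons, with log2 fold changes of -0.65 (SE 0.20), -0.75 (SE 0.19) and -0.72 (SE 0.16) and edgeR adjusted p of 0.0324, 0.0161 and 0.0103. Cish, a feedback inhibitor of cytokine signalling, rose by 0.68 (SE 0.16) after 3x4Gy and by 1.17 (SE 0.16) after 1x20Gy at day 5, with adjusted p of 0.00689 and 0.000116. Klf4, which cooperates with STAT6, rose by 1.55 (SE 0.27, adjusted p = 0.000777) after 3x4Gy. Irf4, a transcription factor that IL-4 induces, rose by 0.88 (SE 0.23, 0.0195) and 1.11 (SE 0.24, 0.00959) after 1x20Gy at day 5 and day 13. The cytokine signalling inhibitor Socs1 rose by 1.01 (SE 0.28, 0.0380) at day 13. Of 9 T cell markers tested, 4 rose at day 13, and their part in the levels of Irf4 and Socs1 was not tested.

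Other genes of alternative activation that passed at day 5 were higher. Of 15 tested, 3 rose and 0 fell after 3x4Gy, 5 rose and 0 fell after 1x20Gy at day 5, and 1 rose and 2 fell at day 13, with medians of 0.54, 0.49 and -0.07. Mgl2, a galactose-binding lectin, rose by 1.49 (SE 0.34, edgeR adjusted p = 0.00594) after 3x4Gy and by 1.24 (SE 0.33, 0.0201) after 1x20Gy at day 5. Il1rn, the antagonist of the IL-1 receptor, rose by 0.85 (SE 0.27, 0.0387) and 1.21 (SE 0.27, 0.00661) in these comparisons. The chemokine gene Ccl17 rose by 1.46 (SE 0.46, 0.0493) after 1x20Gy at day 5, from 7.04 ± 1.45 (n = 4) to 19.3 ± 11.8 CPM (n = 6). At day 13 Egr2, a transcription factor, and Clec7a, the dectin-1 gene, fell with -1.44 (SE 0.27, 0.00419) and -0.80 (SE 0.12, 0.00155). Dendritic cells also express Mgl2, Ccl17 and Clec10a. Of 12 dendritic cell markers, 2 rose in each day 5 comparison, Ccr7 and Zbtb46 after 3x4Gy and Zbtb46 and Clec10a after 1x20Gy. Clec10a and Batf3 are in both lists, so the rise of Clec10a is counted in each. The part of dendritic cells in these results was not tested.

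Among genes of resident and perivascular macrophages, 14 were tested at day 5, of which 3 rose and 4 fell after 3x4Gy and 1 rose and 1 fell after 1x20Gy. At day 13, 1 of 10 rose and 4 fell. The medians were -0.59, -0.41 and -0.57. Fcrls, a scavenger-type receptor gene, fell from 82.7 ± 43.8 (n = 4) to 9.25 ± 2.26 CPM (n = 6) after 3x4Gy, which is -3.17 on the log2 scale (SE 0.47, edgeR adjusted p = 0.000143). It fell after 1x20Gy at day 5 too, with -1.46 (SE 0.44, 0.0400). Slc40a1, the iron exporter ferroportin, fell with -2.40 (SE 0.52, 0.00358) after 3x4Gy and -1.54 (SE 0.27, 0.00307) after 1x20Gy at day 13. Gas6, a bridging ligand for dying cells, fell with -2.04 (SE 0.37, 0.000947) and -0.92 (SE 0.23, 0.0210) in the same comparisons. Of 7 fibroblast markers tested, 7 and 5 fell there, and their part in the level of Gas6 was not tested. F13a1, a clotting factor subunit of macrophages, was 1 of the 3 genes that passed between 3x4Gy and 1x20Gy, with a log2 difference of -1.77 (SE 0.30, 0.0401). Maf, a transcription factor of resident macrophages, rose in all 3 comparisons, by 0.81 (SE 0.23, 0.0208), 0.92 (SE 0.23, 0.0122) and 0.74 (SE 0.19, 0.0220). Of 9 T cell markers tested, 0, 1 and 4 rose in these comparisons and 0 fell. The part of T cells in the level of Maf was not tested.

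Around Arg1 and Nos2, 4 of 20 tested genes of arginine, polyamine and nitric oxide metabolism rose after 3x4Gy and 2 fell. After 1x20Gy at day 5, 3 rose and 1 fell, and at day 13 0 of 18 rose and 2 fell. The medians were -0.09, 0.06 and -0.02. Arg2, the mitochondrial arginase, rose by 1.61 (SE 0.36, edgeR adjusted p = 0.0047) after 3x4Gy, from 6.22 ± 2.10 (n = 4) to 19.0 ± 4.35 CPM (n = 6), and by 1.41 (SE 0.34, 0.0102) after 1x20Gy at day 5. Nos1, the neuronal nitric oxide synthase, rose from 0.246 ± 0.204 to 2.21 ± 1.35 CPM after 3x4Gy and from 0.410 ± 0.234 to 2.55 ± 0.697 CPM after 1x20Gy (adjusted p = 0.00334 and 0.00333). Ddah1 degrades methylated arginines that inhibit nitric oxide synthases. It fell from 9.22 ± 7.81 to 0.0681 ± 0.109 CPM after 3x4Gy and from 4.86 ± 2.98 to 0.0998 ± 0.174 CPM after 1x20Gy (adjusted p = 8.08e-06 and 0.000119), levels too near 0 counts for a fold. Of 7 fibroblast markers tested, 7 and 3 fell in these comparisons, and their part in the level of Ddah1 was not tested. At day 13 the arginine transporter Slc7a2 fell by 1.30 (SE 0.22, 0.00282).

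Of 22 genes of classical activation tested at day 5, 4 rose and 0 fell after 3x4Gy and 3 rose and 0 fell after 1x20Gy, and at day 13 4 of 20 rose and 0 fell. The medians were 0.47, 0.25 and 0.30. Il23a, a cytokine subunit, rose by 2.21 (SE 0.41, edgeR adjusted p = 0.0012) after 3x4Gy and by 2.61 (SE 0.43, 0.000571) after 1x20Gy at day 5. Its levels went from 0.917 ± 0.186 to 4.44 ± 2.04 CPM and from 0.533 ± 0.415 to 3.24 ± 0.442 CPM in these comparisons. Mock levels this near the floor of detection make the size of both changes uncertain. Ptgs2, the inducible cyclooxygenase, rose by 1.73 (SE 0.32, 0.00118) and 1.39 (SE 0.31, 0.00667). At day 13 Ccl5, a chemokine, rose by 1.31 (SE 0.28, 0.0101) and Gbp5, an interferon-induced GTPase, by 0.90 (SE 0.17, 0.00512). T cell markers (4 of 9) and NK cell markers (4 of 6) also rose at day 13, and both cell types express Ccl5. Their part in the result was not tested.

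In the insulin-like growth factor axis around Igf1, the genes that passed were all lower. Of 11 tested at day 5, 5 fell and 0 rose after 3x4Gy and 5 fell and 0 rose after 1x20Gy, and at day 13 1 of 9 fell. The medians were -1.02, -0.89 and 0.03. Igfbp5, an extracellular binding protein, had log2 fold changes of -2.45 (SE 0.50), -2.59 (SE 0.50) and -1.32 (SE 0.32), with edgeR adjusted p of 0.00236, 0.00231 and 0.0171. Igfbp2, another binding protein, fell at day 5, with -2.73 (SE 0.47, 0.000574) after 3x4Gy and -2.43 (SE 0.48, 0.00275) after 1x20Gy. Stromal and epithelial cells are common sources of these binding proteins. Epithelial and tumour markers fell for 3 of 11 genes after 3x4Gy and 6 of 11 after 1x20Gy at day 5, and the fibroblast markers fell as given above. At day 13, 3 of 10 were higher (Cldn4, Krt7 and Krt19) and 1 lower (Krt14), with a median of 0.64. The part of these markers in the result was not tested.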

How the data were processed

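Per the labels, RNA with an integrity number above 8.5 was sequenced from CD45.2+ cells. The deposited values are unnormalised whole-number gene counts, 1 table per library. GRCm38 and mm10 are the builds, and HTSeq 0.9.1, HISAT2 2.0.4, cutadapt 1.5 and bcl2fastq 2.20.0.422 the tools, named in the submitters' processing notes. Annotation, strand setting and read filters are not given in the sources used here. The 5 summary lines of HTSeq were left out. The 10 genes, the gene lists and the rule for other named genes (at most 3 passing genes with the largest change per list and comparison) were chosen with earlier results of these data known. Counts were analysed with edgeR 4.0.16 in R 4.3.3: scaling by TMM, a filterByExpr minimum of 10 counts (15 in total), and the two-sided quasi-likelihood test. The 20 day 5 libraries shared a fit, the 11 day 13 libraries had their own, and the comparison of days used all 31. Adjusted p-values are Benjamini-Hochberg over all genes tested. The SE is the log2 fold change divided by the square root of the F statistic, in absolute value, and log2 CPM used a prior count of 2. There were 7 comparisons. Fits were tested on simulated data. Alternatives covered scaling, filter, tool (DESeq2 1.42.0, limma 3.58.1), covariates, a replicate block and each library left out. Replicate libraries differed beyond counting error (chi-square per degree of freedom 3.42 to 62.7).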

Additional observations from a re-analysis of the deposited data

Results flagged for a closer look

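Among 60 sets of libraries of 1 group tested for a value far from the others (10 genes in 6 groups), 3 were found, where chance gives about 1 in 20. Retnla in the first 3x0Gy library was 37.0 CPM, and the next lowest mock library held 200 CPM. Arg1 in the sixth 3x4Gy library was 66.1 CPM, with 11.8 CPM in the next, and Arg1 in the second 1x20Gy library at day 5 was 64.4 CPM, with 5.07 CPM in the next.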

How the results depend on the processing

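Of 405 values recomputed under another setting, 368 kept their direction and their side of the threshold, and 375 of 397 did with 1 library left out. The number of the 10 genes called after 3x4Gy, 3, became 1 (Igf1) with fibroblast and epithelial markers as a covariate. After 1x20Gy at day 5 it was 2, and became 0 at an adjusted p below 0.01 and with macrophage markers, with fibroblast and epithelial markers or with the share of reads outside genes as a covariate, and 1 with the replicate block. At day 13 it was 2, and 0 with the macrophage marker covariate. Between 3x4Gy and 1x20Gy it was 0, and 1 (Retnla) without the filter on low counts, in DESeq2 and with the replicate block. Leaving out each library gave 2 to 4 genes after 3x4Gy, 0 to 2 after 1x20Gy at day 5, 2 at day 13 and 0 to 1 between regimens.

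Directions turned for genes without a call. With the fibroblast and epithelial covariate, Arg1 became -0.92 and Mrc1 -0.0945 after 3x4Gy, and Arg1 -0.74, Cd163 0.31 and Folr2 0.48 after 1x20Gy at day 5. With the macrophage covariate, Folr2 became 0.18 at day 5 and -0.59 at day 13 after 1x20Gy, and Retnla -0.94 at day 13. Retnla at day 13 was -0.0925 with library size scaling and -0.0241 in limma voom, and Arg1 there 0.0528 with the share of reads outside genes. With 1 library left out, Arg1 ran from -0.0831 to 1.32 after 3x4Gy and from -0.67 to 1.64 after 1x20Gy at day 5. Mrc1 ran from -0.0428 to 0.32 after 3x4Gy, Folr2 from -0.61 to 0.28 after 1x20Gy at day 5 and Retnla from -0.23 to 0.74 at day 13. The causes were not tested.

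The replicate block turned Mrc1 after 3x4Gy to -0.0167, and gave 1223, 876 and 1064 called genes where 1477, 1028 and 891 passed without it. Replicate numbers did not pair the libraries, since same-numbered libraries correlated between -0.255 and 0.401 and were not always each other's best match. Among the calls of the 10 genes, the block took away that of Stab1 after 1x20Gy at day 5 (adjusted p = 0.0511) and added those of Mrc1 at day 13 (0.0190) and Retnla between regimens (0.0336). Of all genes, 180, 89 and 184 passed with the fibroblast and epithelial covariate, 0 at day 13 with the macrophage covariate and 667 after 3x4Gy with the share of reads outside genes. From the 2 groups alone, 702 passed after 3x4Gy. Without the fourth 1x0Gy library the count was 556 at day 5, and without the third mock library 306 at day 13. Scaling to library size alone shifted the median of all genes to -0.104, -0.109 and -0.225, and the share of higher among called genes from 42.3%, 42.9% and 52.4% to 23.1%, 18.2% and 14.5%. Upper quartile scaling gave 28.8% and 29.8% at day 5. DESeq2 called 14 genes between the regimens and 228 between days, where 3 and 51 passed. Low counts limit Nos2, Cd163, Folr2 and Chil3 most.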
